A study of Bos indicus with 72 samples.

Results

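In the hypothalamus of 12 Brahman heifers, 117 genes were chosen by their levels as restricted to that tissue. They had a mean of at least 50 CPM, which are counts scaled to the gene reads of a library, over the 12 hypothalamus libraries and at least 20 times their mean CPM in the 12 pituitary libraries. Their mean in the 12 liver libraries was under 1 RPKM, a read number divided by the size of the library and the length of the gene. The 117 genes were drawn from 24616 genes in the count tables, of which 3518 reached 50 CPM in the hypothalamus and 164 also passed the pituitary step. The liver step removed the other 47. The genes were selected on these 3 levels, which are therefore given only as a description.

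RNA of each heifer was sequenced from 6 tissues, giving 72 libraries from the hypothalamus, the pituitary, both ovaries, the uterus and the liver. Brahman is a Bos indicus beef breed. Each tissue had 6 libraries labelled as taken before puberty and 6 after it, from different animals, and the labels give no age or treatment. Animals 2054 and 2059 were labelled pre-pubertal and post-pubertal, respectively, in 4 tissues and the other way round in liver and uterus. The headers of the liver values go against the liver labels and give 2054 as pre-pubertal and 2059 as post-pubertal. The puberty tests in liver and uterus therefore rest on 5 animals against 5.

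The hypothalamus is the brain region that links the nervous system to the pituitary. Its neurons release peptides such as gonadotropin-releasing hormone, which the portal blood carries to the hormone cells of the anterior pituitary, and puberty follows an increased release of that peptide. Neural tissue also holds astrocytes and oligodendrocytes, the cells that make myelin. Genes of neurons and glia are typically found at far lower levels in liver. None of the 24616 identifiers matched the RefSeq gene table used here, and the files do not pair identifiers with names. Roles of single members and markers of cell types could therefore not be given, and whether the members mark neurons, glia or both was not tested. In bulk tissue, a lower value from fewer cells of a type cannot be told apart from less RNA per cell.

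Depth differed widely between tissues. Hypothalamus libraries held 4837274 to 10406817 gene reads and pituitary libraries 4427245 to 9759919. Ovary libraries held only 184808 to 334454, since 0.352 to 1.10% of their reads lay in genes. In the liver and the uterus, library totals recovered from the values were about 20600000 to 29200000 reads. Within the hypothalamus the pre-pubertal library of heifer 2049 stood apart in the members, as described below, and the puberty changes in the hypothalamus are given with and without it.

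The members took a mean of 6.74% of hypothalamus gene reads (SD 0.947, n = 12). The 3 most abundant members made up most of this, at 4.09% of gene reads, and the other 114 members took 2.65%. ENSBTAG00000022890 led with a mean of 22928 CPM, followed by ENSBTAG00000006977 at 10935 CPM and ENSBTAG00000013534 at 7084 CPM. Below these the levels dropped to 1404 CPM for ENSBTAG00000018245 and 1394 CPM for ENSBTAG00000019037. The median member stood at 134.8 CPM. The members just inside the threshold had 51.3 and 51.4 CPM, and the genes just outside 49.9 and 49.4 CPM.

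Longer genes collect more reads, so levels of different genes were also set side by side per length for the 81 members whose length could be read from the RPKM values with at least 3 different read numbers. Their mean hypothalamus level in RPKM of gene reads ran from 9.41 to 13535, with a median of 71.0. The order of the 3 leading genes stayed as it was on the CPM scale. The fourth place per length went to ENSBTAG00000043565 at 1451 RPKM, a gene of 72 bases by its recovered length, with 104.5 CPM. That place rests on the division by so short a length, since its CPM lay below the median member at 134.8 CPM. Whether its reads are shared with an overlapping gene was not tested.

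**Figure D1:**
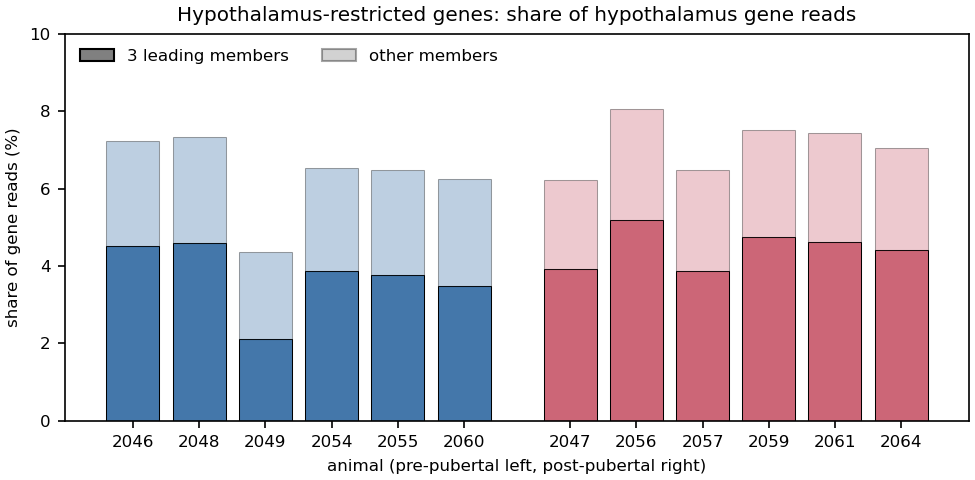
Share of hypothalamus gene reads (%) taken by the 3 leading members (dark) and the other 114 members (pale) in each library, pre-pubertal animals in blue on the left and post-pubertal animals in red on the right. Animal 2049 has the lowest bar, at 4.36%, and animal 2056 the highest, at 8.06%.

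The share taken by the members overlapped between the puberty groups. Before puberty it was lowest at 4.36%, with a median of 6.51% and a highest value of 7.34%. After puberty it ran from 6.21% to 8.06%, with a median of 7.24%. Only the library of heifer 2049 lay below the post-pubertal range. In that library the 3 leading members took 2.12% of gene reads, and the other 114 members 2.24%.

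Gaps to the pituitary were often far wider than the rule asked for. The median ratio of the hypothalamus mean to the pituitary mean was 63.9. ENSBTAG00000030482 had no read in 12 pituitary libraries, where 3 reads over all libraries, the limit that a count of 0 allows, equal 0.0386 CPM, and a mean of 125.4 CPM in the hypothalamus. ENSBTAG00000015784 reached a ratio of 4256 with 4 pituitary reads in all, and ENSBTAG00000004574 a ratio of 3376 with 11. At the other end, ratios of 20.4 and 21.4 lay just inside the threshold and 19.8 and 19.8 just outside. Together the members made up 0.0480% of pituitary gene reads (SD 0.00931, n = 12). In the liver 19 members had no read, the median member mean was 0.0192 RPKM, and the threshold fell between members at 0.983 and 0.910 RPKM and other genes at 1.01 and 1.19 RPKM.

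The uterus and the ovaries played no part in the choice of members. The uterus table listed 68 of the 117 members, which is 58.1%, against 97.0% of the 3401 other genes with at least 50 CPM in the hypothalamus. Of those 68, 31 had a uterus mean under 1 RPKM, or 45.6%, compared with 2.09% of the other genes listed. The median of the members listed was 1.39 RPKM and that of the other genes 30.7 RPKM.

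The label of restriction did not hold for every member in the uterus, where 18 members had a mean over 5 RPKM. ENSBTAG00000034586 had the highest mean, 40.04 RPKM over 12 libraries. ENSBTAG00000033803 followed with 33.1 RPKM and ENSBTAG00000006694 with 26.7 RPKM. In the liver the same genes had means of 0.108, 0.160 and 0.801 RPKM. In the uterus ENSBTAG00000034586 ranged before puberty from 21.5 to 125.3 RPKM, with a median of 45.3, and after puberty from 9.52 to 38.3 RPKM, with a median of 14.9. Those groups overlapped and the difference missed the test (log2 change -1.64 ± 0.54 SE, limma adjusted p = 0.113). ENSBTAG00000033803 ranged from 14.7 to 29.3 RPKM before and from 23.8 to 58.4 RPKM after puberty, which also overlapped (log2 change 1.01 ± 0.27, limma adjusted p = 0.0614).

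In the ovaries 33 members, or 28.2%, had no read in any of the 24 libraries, compared with 1.38% of the other genes with at least 50 CPM in the hypothalamus. A total of 68 members had fewer than 10 reads over both ovaries (58.1%, against 8.88%). Only 11 members passed 100 reads (9.40%, against 41.4%). A single gene, ENSBTAG00000017818, held 20524 reads and thereby 65.1% of all member reads in the ovaries. It stood at 3937 CPM in the left and 3364 CPM in the right ovary, and its hypothalamus mean was 876.2 CPM. These levels cannot be ranked between the tissues, since CPM is taken over gene reads alone. Gene reads were 0.352 to 1.10% of all reads in ovary libraries and a mean of 34.7% in the hypothalamus. ENSBTAG00000047274 with 3227 reads and ENSBTAG00000043565 with 2108 came next. Because ovary libraries held few gene reads, 1 read in a library was worth several CPM, and a gene with no read there may still be transcribed.

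**Figure D2:**
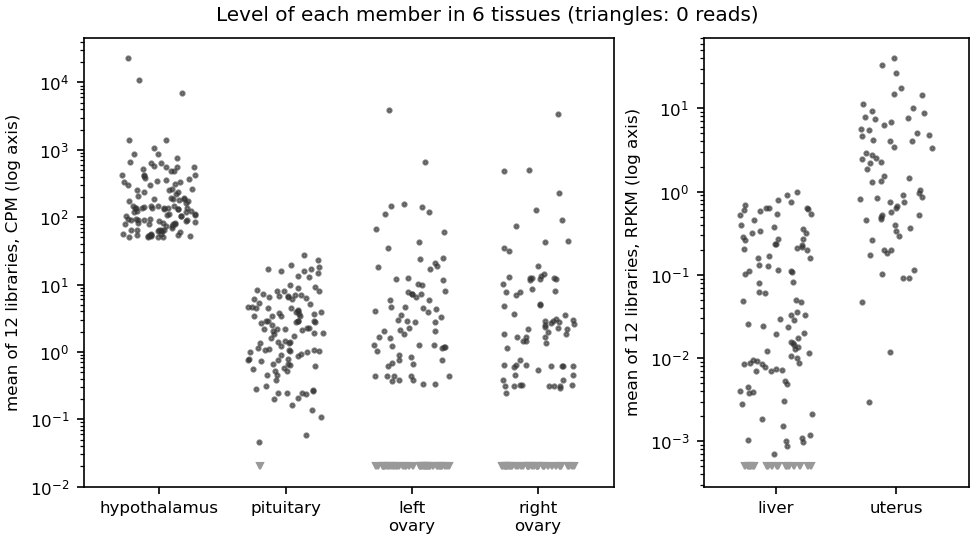
Mean level of each member over 12 libraries per tissue, in CPM for the tissues with counts (left) and in RPKM for liver and uterus (right), both on log axes; grey triangles mark members with 0 reads, and 49 members that the uterus table does not list are not drawn. The 3 leading points in the hypothalamus (7084 to 22928 CPM) and the single leading point in the ovaries (3937 and 3364 CPM) are different genes.

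The members varied more between hypothalamus libraries than other genes with at least 50 CPM. Their median coefficient of variation (CV, the SD as a percent of the mean) was 23.6% over 12 libraries, against 13.4% for the 3401 others. Of the members, 16 had a CV above 50%, or 13.7%, against 2.03% of the others. Some of these 16 met the rule only through the library of heifer 2049. Without heifer 2049 the medians were 19.2% and 12.5%, and 7 members stayed above 50%, all of them among the 16.

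The steadiest members had an SD under 10% of their mean. ENSBTAG00000018989 had a CV of 9.39%, with values of 80.9 to 108.8 CPM before and 81.8 to 96.6 CPM after puberty. ENSBTAG00000020413 had a CV of 9.49%, with 119.8 to 146.2 CPM before and 108.3 to 149.9 CPM after puberty. ENSBTAG00000017627 had a CV of 9.93%, with 278.3 to 392.4 CPM before and 313.9 to 385.7 CPM after puberty. In these 3 genes the puberty groups overlapped over most of their range.

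The 3 most variable members had their highest value in heifer 2049. ENSBTAG00000008336 had 599.6 CPM in that library and 27.9 to 72.7 CPM in the other 11, an 11.6-fold gap to their median. ENSBTAG00000007732 had 472.1 CPM there and 22.1 to 60.3 CPM elsewhere, a 10.1-fold gap. ENSBTAG00000014538 had 781.2 CPM there and 56.9 to 200.2 CPM elsewhere. Each of the 3 was thus higher in this single pre-pubertal animal than in every other animal of either group. The values of the other 11 libraries overlapped between the groups. Part of the gap was built in by the rule, since none of the 3 genes met it over those 11 libraries. ENSBTAG00000008336 and ENSBTAG00000007732 had means under 50 CPM there, and ENSBTAG00000014538 had a mean under 20 times its pituitary mean. When heifer 2049 was left out, 117 genes met the rule, of which 111 were among the members.

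Across all members the library of heifer 2049 departed in both directions. It was the lowest of the 12 libraries in 62 members, or 53.0%, compared with 21.3% of the other genes of at least 50 CPM. It was the highest in 20 members, or 17.1%, close to the 18.3% of the other genes. In 16 members it lay under 0.5 times the median of the other 11 libraries, among them ENSBTAG00000030482 at 18.5 CPM against 118.6. In 15 members it lay over 2-fold above that median. Shares of 13.7% and 12.8% of the members compare with 2.32% and 2.53% of the other genes. The second share includes members that met the rule only through this library, such as ENSBTAG00000008336 and ENSBTAG00000007732. The median log2 difference of this library from the rest was -0.57 over the members and -0.01 over the other genes.

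In depth this library was near the middle, with 8259417 gene reads. Of its reads 34.0% lay in genes, within the range of the other libraries, and 5.46% aligned to more than 1 place, the lowest share of the 12. Its pituitary library was near the middle of the range, with the members at 0.0448% of gene reads. The part of any of these in the result was not tested. The post-pubertal library of heifer 2047, the shallowest with 4837274 gene reads, was lowest in 27 members (23.1%, against 13.1% of the other genes) and under 0.5 times the median of the rest in 21. Of those 21 members, 9 were over 2-fold high in heifer 2049 and 2 were under 0.5 times there too.

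**Figure D3:**
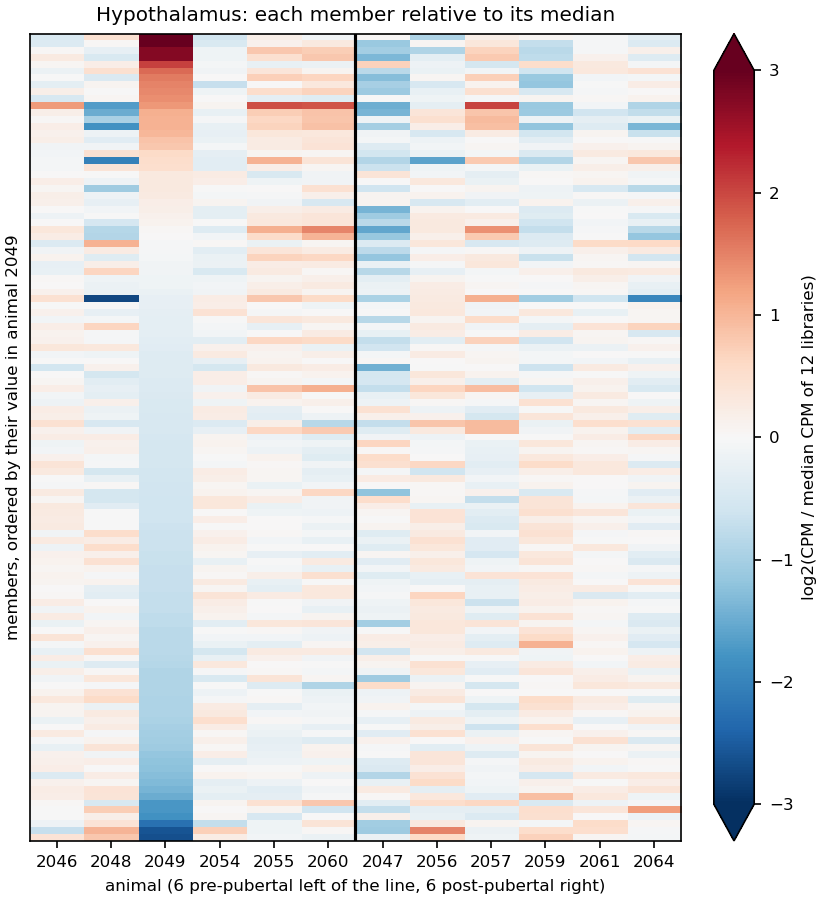
Level of the 117 members (rows, ordered by the value in animal 2049) in 12 hypothalamus libraries, as log2 of CPM over the member's median of 12 libraries; colours saturate at 3 and -3. The column of animal 2049 runs from red in the upper rows to blue below, and no other column departs as far over as many members.

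Members moved together, and in opposite directions, across animals more often than other genes when all libraries were used, given as a description. Over 12 libraries the median correlation of log2(CPM + 0.5) between 2 members was 0.208, and it was 0.0192 between other genes of at least 50 CPM. Without heifer 2049 the members' median fell to 0.0823, and that of the other genes was 0.0205. Pairs with a correlation above 0.7 made up 13.4% of member pairs with all libraries and 8.40% without heifer 2049, against 3.54% and 4.29% of other pairs. Pairs that ran opposite, with a correlation below -0.7, made up 5.47% and 2.99% of member pairs, against 2.35% and 2.79% of other pairs. All pairs share the same 12 libraries and their scaling, and no test was made. Some members met the rule only through heifer 2049, so the rule itself may have added to the figures over 12 libraries.

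The design asks whether expression in the hypothalamus differs before and after puberty. No gene passed an adjusted p of 0.05 in edgeR's quasi-likelihood test, which was 0 of 13713 genes tested (0%) and 0 of 117 members. DESeq2 also called 0 genes. At an unadjusted p under 0.05 stood 7 members, or 5.98%, against 3.46% of all genes tested. Of these 7, 1 was higher and 6 were lower after puberty, and all 6 lower ones were over 2-fold high in heifer 2049. None of the 7 was under 0.05 without that animal. ENSBTAG00000008336, ENSBTAG00000007732 and ENSBTAG00000014538 are among the 7 and met the rule only through this pre-pubertal library. The rule thus helped to raise both the share and the number lower after puberty, and neither is support for a fall. The number of members under 0.05 ranged from 0 to 10 when 1 animal was left out. It was 0 without heifer 2049 or 2056, 1 without heifer 2047, and 10 without heifer 2048 or 2057. The library codes of each tissue fall into 2 sets of 6, each with animals of both groups. In the second set alone, which does not hold heifer 2049, 18 members (15.4%) were under 0.05, against 9.77% of all genes, and in the first set alone 3 members (2.56%, against 2.35%). In no member did the ranges of the 2 groups stay apart, as they did in 0.131% of all genes tested. In the fit of all 12 libraries, 69 members had a positive and 48 a negative log2 change, and the median was 0.05, against -0.01 over all genes. Without heifer 2049, 51 members had a positive change and the median was -0.02, so the sign of the median turned.

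The 2 largest negative changes were mostly lost without that library. ENSBTAG00000008336 ranged from 35.4 to 599.6 CPM before puberty, with a median of 54.5, and from 27.9 to 59.3 CPM after it, with a median of 52.7. The groups overlapped, and the log2 change of -1.50 ± 0.67 (SE) became -0.07 ± 0.21 without heifer 2049. ENSBTAG00000007732 ranged from 34.7 to 472.1 CPM before puberty, with a median of 50.5, and from 22.1 to 60.3 CPM after it, with a median of 41.1. These groups overlapped too, and its log2 change of -1.45 ± 0.65 became -0.15 ± 0.25. Both had an adjusted p of 0.979 in edgeR over 12 libraries.

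The largest positive changes depended less on heifer 2049. ENSBTAG00000002744 had 35.1 to 86.6 CPM before puberty, with a median of 46.3, and 38.5 to 120.7 CPM after it, with a median of 87.4. ENSBTAG00000013534, the member with the third highest level, had 3921 to 7387 CPM before, with a median of 6410, and 5102 to 10739 CPM after, with a median of 8433. In both genes the medians differed while the ranges overlapped. The log2 change was 0.63 ± 0.30 for the first gene and 0.49 ± 0.21 for the second, with an edgeR adjusted p of 0.979 for each. Without heifer 2049 the changes were 0.57 ± 0.32 and 0.39 ± 0.19.

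**Figure D4:**
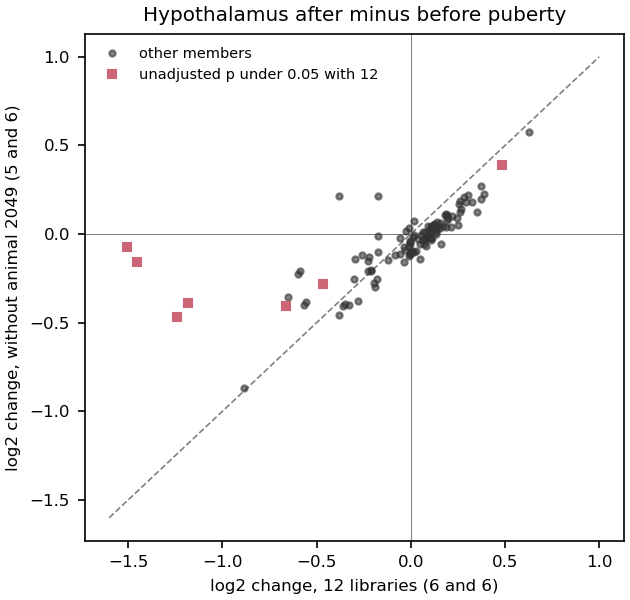
Log2 change of each member in the hypothalamus, after minus before puberty, fitted on 12 libraries (x axis) and without animal 2049 (y axis); the dashed line marks equal values and squares the 7 members with an unadjusted p under 0.05 on 12 libraries. The lowest change is -1.50 on 12 libraries and -0.87 without animal 2049, and 26 members change direction.

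The most abundant members kept overlapping ranges. ENSBTAG00000022890 had 10245 to 26880 CPM before puberty, with a median of 21308, and 17911 to 30530 CPM after it, with a median of 24804. ENSBTAG00000006977 had 6984 to 11980 CPM before, with a median of 11223, and 10559 to 13453 CPM after, with a median of 11195. The lowest value of each gene came from heifer 2049. Their log2 changes of 0.26 ± 0.23 and 0.14 ± 0.15 did not pass the test (edgeR adjusted p = 0.979 for each). Without heifer 2049 they were 0.12 ± 0.16 and 0.04 ± 0.11.

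In the pituitary 68 members passed the filter on low counts. None was called, as was no gene among 13335 (0% with edgeR, 0 with DESeq2). An unadjusted p under 0.05 was reached by 2 members, or 2.94%, against 1.52% of all genes. The groups overlapped in every member tested, and stayed apart in 0.015% of all genes. In the liver 14 members passed the filter, and none had even an unadjusted p under 0.05, where limma called 0 of 11697 genes (0%) and 1.71% had an unadjusted p under 0.05.

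In the uterus, puberty status went with large differences in some members. Of 46 members that passed the filter of 0.5 RPKM in at least 5 libraries, 8 were called by limma at an adjusted p under 0.05, against 3.9% of the 13015 genes tested. They were 17.4% of the members tested, and 4 rose and 4 fell. An unadjusted p under 0.05 was reached by 22 of the 46, against 19.9% of all genes. A member at low level can pass the filter through its higher group alone, so these counts describe the members that passed and not all 117. Groups did not overlap in 8 members, against 7.3% of all genes tested. These are not quite the 8 called members, since ENSBTAG00000020099 was called with overlapping groups and a member without overlap was not called. ENSBTAG00000017411 is among those without overlap, though it passed the filter through its post-pubertal libraries alone. The uterus values were deposited without their sign on the log2 scale, and signs restored from whole reads enter the results.

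ENSBTAG00000027074 showed the largest rise. Before puberty it had 0.650 RPKM in heifer 2046, 0.117 in 2048, 0.920 in 2049, 1.12 in 2055 and 1.46 in 2060, a mean of 0.853 ± 0.506 (SD, n = 5). After puberty it had 15.2 RPKM in heifer 2047, 29.2 in 2056, 3.44 in 2057, 15.1 in 2061 and 2.73 in 2064, a mean of 13.2 ± 10.8 (n = 5). The groups did not overlap, and the log2 change on the log2(RPKM + 0.5) scale was 2.97 ± 0.59 (SE, limma adjusted p = 0.0208). In the hypothalamus this member had a mean of 145.3 CPM, with 60.7 to 243.2 CPM before and 98.9 to 229.1 CPM after puberty, which overlapped. ENSBTAG00000017411 had, in the same order of animals, 0.0241, 0.135, 0.0387, 0.148 and 0.214 RPKM before puberty. After it the values were 3.12, 1.81, 1.23, 17.1 and 1.94 RPKM, all above the highest before. Heifer 2061 stood far above the others, and the log2 change was 2.57 ± 0.52 (limma adjusted p = 0.0224). This gene passed the filter through its 5 post-pubertal libraries alone, so a difference was required for it to be tested, and its call is no support for a rise.

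Among the falls, ENSBTAG00000020099 was largest. In the same order of animals it had 12.8, 4.61, 7.62, 1.03 and 15.8 RPKM before puberty, a mean of 8.36 ± 5.97. After it the values were 0.234, 0.185, 0.354, 1.12 and 0.457 RPKM, a mean of 0.471 ± 0.380. Heifer 2055, the lowest before puberty, overlapped with heifer 2061, the highest after it, and the log2 change was -2.87 ± 0.56 (limma adjusted p = 0.0194). The 5 pre-pubertal libraries were enough for this gene to pass the filter. After puberty only heifer 2061 reached 0.5 RPKM, so its call is little support for a fall. ENSBTAG00000006694 had 26.8, 17.0, 15.3, 58.7 and 78.7 RPKM before puberty, a mean of 39.3 ± 28.1. After it the values were 13.5, 8.12, 4.71, 6.61 and 10.3 RPKM, a mean of 8.64 ± 3.39. These groups did not overlap (log2 change -1.90 ± 0.45, limma adjusted p = 0.0411). ENSBTAG00000018245, the fourth most abundant member in the hypothalamus, was among the other 2 members that fell, from 1.85 ± 0.386 to 0.708 ± 0.141 RPKM (limma adjusted p = 0.0169).

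All 8 members had the same direction within the first library set (3 animals against 3) and within the second (2 against 2), which their choice on all 10 animals largely fixed. The 2 uterus libraries left out for their labels had values that can be read beside these groups. Heifer 2054, labelled post-pubertal in the uterus, had 11.6 RPKM of ENSBTAG00000027074, 0.605 of ENSBTAG00000017411, 0.185 of ENSBTAG00000020099 and 17.4 of ENSBTAG00000006694. Heifer 2059, labelled pre-pubertal there, had 0.678, 0.0310, 3.94 and 62.9 RPKM. Heifer 2059 was thus within the pre-pubertal range in all 4 genes, while heifer 2054 lay outside it in the first 3. Heifer 2054 was not within the post-pubertal range throughout either. It lay below the lowest value of 1.23 RPKM in ENSBTAG00000017411 and above the highest of 13.5 RPKM in ENSBTAG00000006694. Which labels are right was not settled. With their uterus labels 19 members were called, and with their labels in the other 4 tissues none was. Leaving out heifer 2046 or 2060 left 4 members called, and leaving out heifer 2055 or 2061 left 5. When each animal was left out in turn, ENSBTAG00000027074 and ENSBTAG00000020099 stayed called in 8 of 10 fits and ENSBTAG00000018245 in 9. ENSBTAG00000006694 stayed called in only 3 of 10, with an adjusted p of up to 0.108, and ENSBTAG00000017411 in 2 of the 5 fits in which it could be tested. The called members not given by identifier were steadier and stayed called in 9 or 10 of 10 fits each. With the signs as deposited 4 members were called, of which 3 were among the 8. These 3 are the called members not given by identifier, and none of their values was read as below 0. None of the 5 uterus members described here was then called, with limma adjusted p-values of 0.173 for ENSBTAG00000027074, 0.251 for ENSBTAG00000017411, 0.430 for ENSBTAG00000020099, 0.0677 for ENSBTAG00000006694 and 0.462 for ENSBTAG00000018245. The change of ENSBTAG00000017411 turned to -1.79 and that of ENSBTAG00000018245 moved from -0.95 to -0.26. No value of ENSBTAG00000006694 was read as below 0, so its log2 change stayed at -1.90 and only its adjusted p moved.

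**Figure D5:**
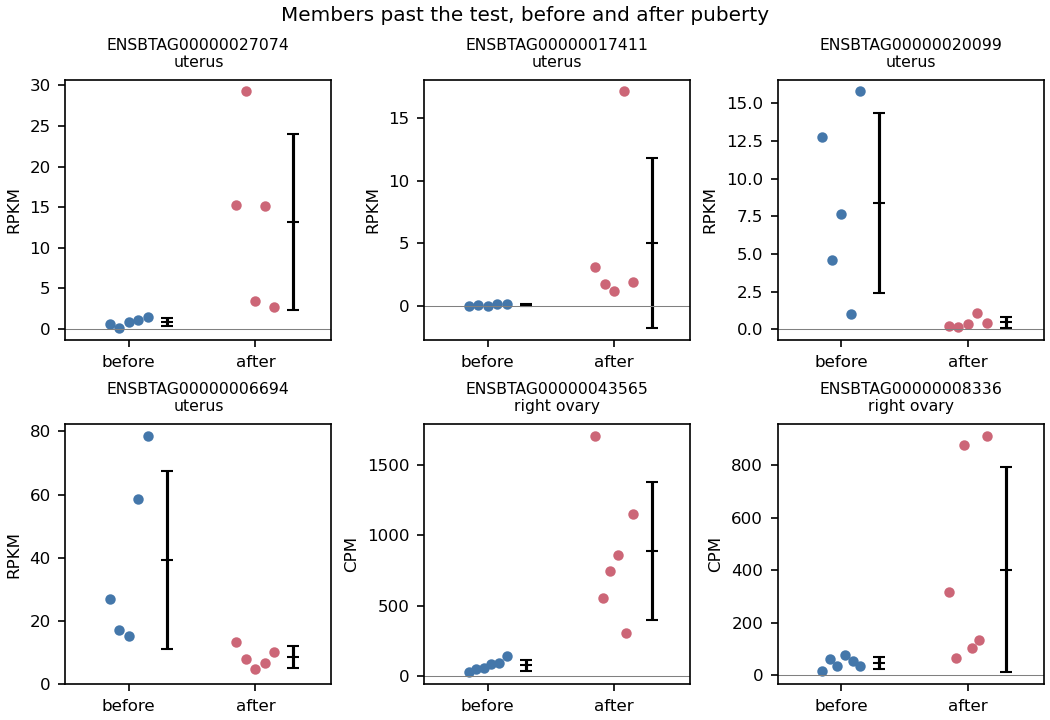
Values of the 4 members with the largest called changes in the uterus (RPKM, 5 animals before and 5 after puberty, signs restored) and of both members called in the right ovary (CPM, 6 and 6); points are animals and bars the mean and SD. The 4 uterus genes differ in direction, with 2 higher and 2 lower after puberty; in the right ovary all 6 animals after puberty lie above 308 CPM in the first gene, and 5 of 6 lie above the pre-pubertal range in the second.

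Only 9 members passed the filter on low counts in the right ovary, where edgeR called 50 of 2073 genes, or 2.41%. Of the 9 members 2 were called, both higher after puberty. ENSBTAG00000043565, the gene of 72 bases, had 26.3 to 139.1 CPM before puberty, with a median of 74.3, and 308.4 to 1704 CPM after it, with a median of 801.3. The groups did not overlap, as in 3.96% of all genes tested, and the log2 change was 4.40 ± 0.61 (SE, edgeR adjusted p = 0.0016). ENSBTAG00000008336 had 18.8 to 76.9 CPM before, with a median of 46.8, and 68.1 to 912.7 CPM after, with a median of 226.1. Its groups overlapped through heifer 2056 alone, and the log2 change was 3.61 ± 0.62 (edgeR adjusted p = 0.0061). All post-pubertal libraries of this gene reached the level that the filter asks for, but only some pre-pubertal ones did. Its higher group thus helped it to be tested, which limits its call as support for a rise.

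Both genes stayed called when any animal was left out, with an adjusted p of at most 0.0258. Within the first library set alone, edgeR gave an adjusted p of 6.26e-05 for the first gene and 0.167 for the second, and within the second set 0.125 and 0.141. Reads of so short a gene as ENSBTAG00000043565 may be shared with an overlapping gene, which was not tested since no coordinates were at hand. Only members with enough reads could be tested, so these results do not extend to the others.

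The left ovary gave no call among 1922 genes with edgeR (0%), where 5.31% had an unadjusted p under 0.05, as did 2 of 9 members, and DESeq2 called 1 gene, which was no member. ENSBTAG00000043565 had 23.4 to 206.5 CPM before puberty, with a median of 81.3, and 46.7 to 679.4 CPM after it, with a median of 104.7. ENSBTAG00000008336 had 28.0 to 99.3 CPM before, with a median of 80.5, and 41.6 to 1160 CPM after, with a median of 71.4. The post-pubertal heifer 2057 held the highest value of both genes, and the groups overlapped. The change in the right minus the left ovary, fitted with the animal as a block, was 3.27 ± 0.89 for the first gene and 2.08 ± 0.87 for the second, each with an edgeR adjusted p of 0.860. That test called 0 of 2476 genes (0%), while 5.49% had an unadjusted p under 0.05, so a difference between the sides was not shown. The groups stayed apart in none of the 9 members in the left ovary and in 0.26% of all genes there.

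ENSBTAG00000017818, which dominated the ovary reads of the members, had 3340 to 4635 CPM in the right ovary before puberty and 1205 to 3165 CPM after it. The ranges did not overlap on this scale, but with TMM scaling the log2 change was -0.26 ± 0.17 (edgeR adjusted p = 0.442). In the hypothalamus ENSBTAG00000043565 had 62.2 to 133.3 CPM before puberty and 75.4 to 160.7 CPM after it, and the ranges overlapped. Neither it nor ENSBTAG00000008336 was called there.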

How the data were processed

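RNA was extracted from each tissue, made into libraries with a TruSeq kit and sequenced as paired ends, per the labels' protocols. For hypothalamus, pituitary and ovaries the authors deposited counts of reads per gene. Rows that name no gene stayed out of library sizes. They hold a median of 58.6% of reads in no gene in the hypothalamus and 56.4% in the pituitary, and 89.7% and 89.8% in the left and right ovary. The liver values are deposited RPKM. The deposited uterus values are log2 values without sign, which behaved as the size of log2(RPKM + 0.001). The build is UMD 3.1, per the submitters' processing notes, while the aligner and its use of strand remain not given in the sources used here. Overlapping, antisense and near-identical genes may share reads.

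Library totals, gene lengths and signs were recovered from values that come out as whole reads, within 0.003 reads. Of the uterus values, 15.8% were read as below 0 and 0.676% kept an open sign. An open value took the sign that brought it nearest the median of the gene's values of known sign. Where no sign of the gene was known, it was taken as positive. CPM is a count over the sum of gene rows. Counts were tested per tissue with edgeR 4.0.16 (quasi-likelihood F test, TMM, filterByExpr, robust) and RPKM with limma 3.58.1 (trend, robust) on log2(RPKM + 0.5). All p-values are two-sided and adjusted by Benjamini and Hochberg over every gene tested, and the tests were checked on simulated data. Each animal was 1 replicate. Both ovaries of an animal were paired by its labelled number. Over 1859 genes the deviations from group means of the left and right ovary of 1 animal correlated with a median r of 0.299, and 11 of 12 animals exceeded 0.1. Between animals of a group the median was -0.0691. Alternatives were DESeq2 1.42.0, other scaling, filters and pseudocounts, a term for the library set, and leaving out animals. Each library set alone, edgeR on recovered uterus reads, the ovary difference and spread without heifer 2049 were added after seeing the data.

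The members and lists were chosen with earlier results of these data known. Members were named by fixed rules, which took the highest levels and ratios, the largest and smallest CV, the highest uterus and ovary levels, the largest puberty changes and the neighbours of each threshold. Of members past a test, at most 2 rises and 2 falls are given by identifier unless another of these rules names them. Gene names, and with them lists of cell type markers and sequences, were not used here, since no identifier matched.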

Additional observations from a re-analysis of the deposited data

Results flagged for a closer look

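In 40 groups of 5 or 6 animals examined for a value far from the rest, 6 held one. Chance gives about 1 in 20 groups, but the number here cannot be set against that, since 3 of the genes were named for their large CV, which their value in heifer 2049 makes. In the pre-pubertal hypothalamus heifer 2049 accounted for 4 of the 6. Its members took 4.36% of gene reads, with the next lowest library at 6.24%. It had 599.6 CPM of ENSBTAG00000008336, where the next highest pre-pubertal library had 72.7 CPM. It had 472.1 CPM of ENSBTAG00000007732 next to 58.3 CPM, and 781.2 CPM of ENSBTAG00000014538 next to 200.2 CPM. In the post-pubertal hypothalamus heifer 2056 had 13453 CPM of ENSBTAG00000006977, above the next highest at 11480 CPM. In the post-pubertal uterus heifer 2061 had 17.1 RPKM of ENSBTAG00000017411, above the next highest at 3.12 RPKM.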

How the results depend on the processing

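No paired analysis was possible because the pre-pubertal and post-pubertal heifers are different animals. The number of members was 75 at 100 CPM or at a ratio of 40, and 178 at a ratio of 10, and 114 to 124 when 1 animal was left out. Leaving out heifer 2049 gave 117, of which 111 were among the members described here. Without heifer 2049 the median correlation between members was 0.0823, and 7 members had a CV above 50%. Library set 1 alone called 1 gene in the hypothalamus. In the left ovary DESeq2 called 1 gene, no filter on low counts 4, and each library set alone 2. In the right ovary DESeq2 called 111 genes, no filter 265 with 4 members, leaving out animals 2054 and 2059 19, set 1 alone 28 with 1 member, and set 2 alone 0 with 0 members. Leaving out 1 animal gave 21 to 88 genes and 2 to 3 members there, with fewer than 34 genes without 2047, 2054 or 2059 and the most without 2061. In the uterus the labels of the other tissues for 2054 and 2059 gave 0 genes and 0 members, their uterus labels 1600 and 19, and signs as deposited 305 and 4. Leaving out 1 animal gave 181 to 732 genes and 4 to 10 members, with 303 or fewer without 2046, 2055, 2057 or 2060 and 323 without 2061. edgeR on recovered uterus reads called 652 genes and 12 of 55 members, which included all 8. The change of ENSBTAG00000008336 in the hypothalamus turned to 0.35 in library set 2 alone, which does not hold heifer 2049. That of ENSBTAG00000017411 in the uterus turned to -1.79 with signs as deposited, where values under 1 RPKM count as above it. The cause of the other shifts was not tested. No alternative called a member in hypothalamus, pituitary, left ovary or liver. The small share of ovary reads that lay in genes limits members there, and only 9 could be tested on each side.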
